A study of Mus musculus with 8 samples.

Results

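The genes described here are 45 genes of the BMP and TGF-β pathways, chosen by symbol from a list of ligands, secreted antagonists, latent TGF-β binding proteins, receptors, SMADs and ID genes. All 45 were listed among the 24346 gene symbols of the deposited tables. The 8 RNA-seq libraries hold mesenchymal cells of the mouse large intestine sorted as CD45-, EpCAM-, CD31-, gp38+, PDGFRα high and Ly6C negative. In the genotype set, 1 library came from untreated cells of Cxcl12 flox/flox mice, here called the control, and 1 from untreated cells of Foxl1cre; Cxcl12 flox/flox mice, the conditional knockout. Both carry the floxed alleles of Cxcl12, a chemokine gene, and Cre is driven by Foxl1, so that deletion is limited to cells that expressed Foxl1. In the time set, cells of C57BL/6 mice, for which the labels name no allele, were treated with 1 mM GABA and 20 mM taurine and gave 3 libraries at 0 h and 3 at 6 h. No untreated 6 h library was analysed here, so time and treatment cannot be told apart. The sources used here give neither age nor pooling of animals. Nothing states that the 3 libraries of a time came from separate animals or cultures, so p-values speak only of the spread among the libraries, which can be technical.

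Ligands of this superfamily bind pairs of type I and type II serine/threonine kinase receptors. BMP receptors activate Smad1, Smad5 and Smad9, whereas TGF-β and activin receptors activate Smad2 and Smad3, and either group joins Smad4 to regulate transcription. In the colon, mesenchymal cells beneath the upper crypt are known as a source of BMP ligands, which favour epithelial differentiation, while cells near the crypt base secrete antagonists that protect stem cells from them.

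Cxcl12, the targeted gene, stood at 1298 FPKM in the control library, 739.7 FPKM in the knockout library and 860.4 to 969 FPKM in the time libraries. The sort markers Pdgfra (152 to 227 FPKM in the 8 libraries) and Pdpn (91.7 to 304 FPKM) were present in each library. FPKM are fragments scaled by transcript length and by library, so levels of different genes can be compared, but only roughly. The annotation used is not given, and exons of 14 of the 45 genes overlap those of another gene. The genes of the surface proteins sorted against were near 0 in the time libraries, where Ptprc, Epcam and Pecam1 did not exceed 0.48 FPKM, but in the genotype libraries they ran from 2.75 to 14.6 FPKM. Ly6c1 stood at 140.9 and 89.6 FPKM in the genotype libraries and at 8.76 to 12.4 FPKM in the time libraries, although the gate was Ly6C negative. Foxl1 stood at 10.2 and 11.6 FPKM in the genotype libraries and did not exceed 0.289 FPKM in the time libraries. The number of reads is unknown. From the steps of low values, the relative depth of the knockout library was 1.26 times the control's, and the other time libraries were 0.824 to 0.959 times as deep as replicate 1 at 0 h. These estimates are rough. Of the low genes, 24% in the genotype pair and 7.6% to 9.53% in the time pairs lay within 0.01 of the most common log2 ratio. In these bulk samples fewer cells of a type and less RNA per cell cannot be told apart.

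At a mean of at least 1 FPKM, 43 of the 45 genes were expressed in the genotype libraries and 38 in the time libraries. Of these, 37 were expressed in both sets, 6 in the genotype set alone (Bmp3, Bmp7, Chrd, Chrdl1, Chrdl2 and Smad9), and Nog in the time set alone. Inhbb reached 1 FPKM as a mean in neither set. Of all 24346 gene symbols, 14949 passed the same cut-off in the genotype libraries and 10910 in the time libraries. The lower count in the time set was thus not particular to the list. The labels do not say whether the cells of the time set were cultured. The sets differ in genotype, treatment and marker content and may have been normalised separately, so the levels below are set side by side without a test.

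**Figure D1:**
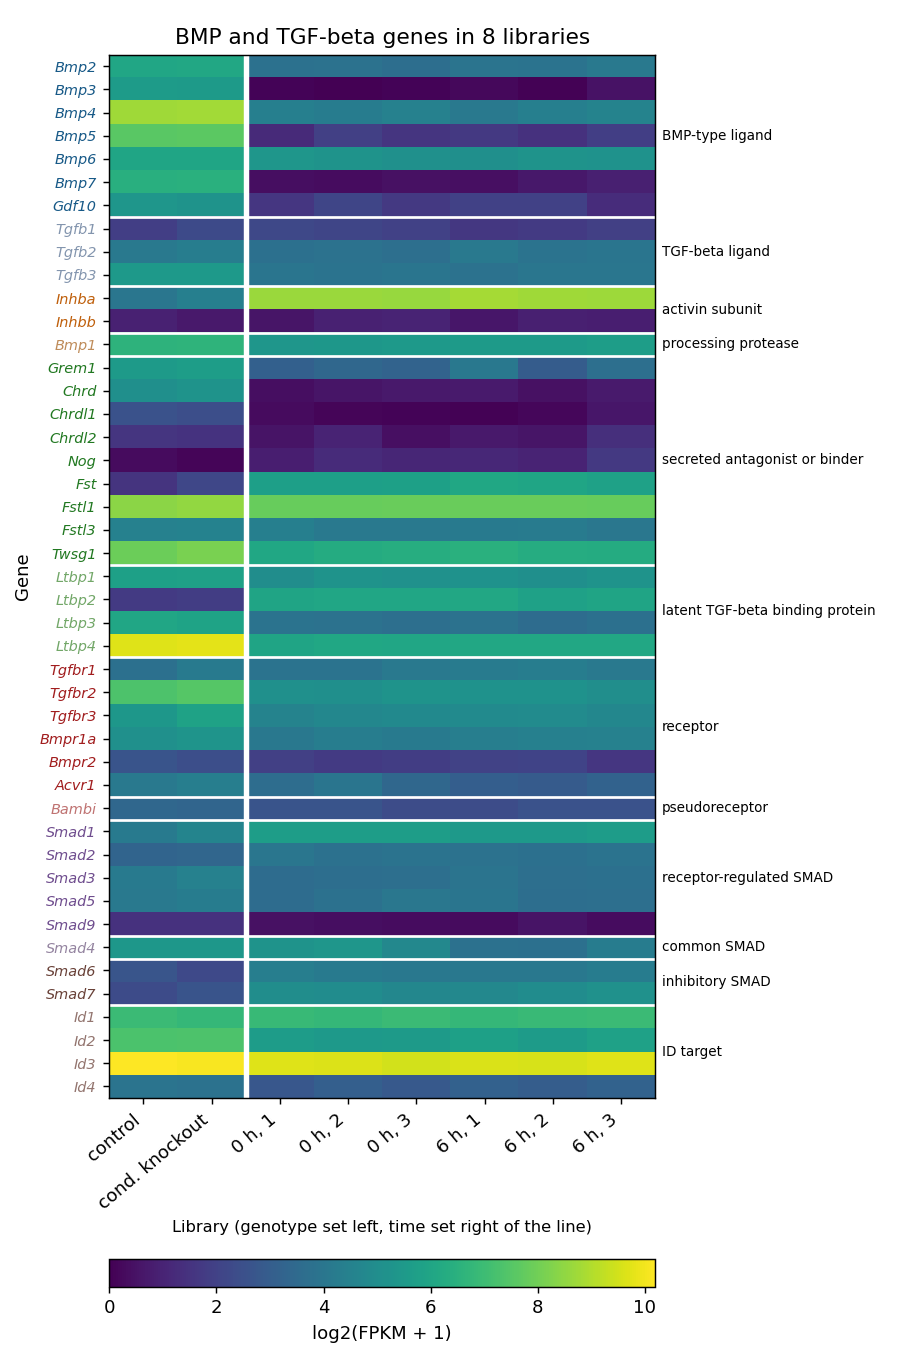
Expression of the 45 genes, as colour on the log2(FPKM + 1) scale, with genes in rows grouped by role and the 8 libraries in columns. The 2 genotype libraries left of the line resemble each other, as do the 6 time libraries, while BMP ligands are brighter on the left and Inhba, Fst and Ltbp2 on the right.

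BMP ligands were abundant in the genotype libraries and much lower in the time libraries. Bmp4, a ligand of the gut mesenchyme, stood at 424 and 443 FPKM in control and knockout. In the time libraries Bmp4 stood at 20.0, 18.2 and 21.0 FPKM at 0 h and at 16.3, 20.0 and 22.8 FPKM at 6 h. All 6 time libraries lay far below both genotype libraries. Bmp5 stood at 189 and 196 FPKM in the control and the knockout, against 1.35, 2.76 and 1.95 FPKM at 0 h and 2.23, 1.74 and 2.7 FPKM at 6 h. Bmp7 stood at 85.1 and 87.0 FPKM against 0.276 to 0.846 FPKM in the time libraries. Bmp3, a ligand that can oppose other BMPs, stood at 46.8 and 46.2 FPKM against 0 to 0.403 FPKM. The same order held for Bmp2 (64.1 and 68.6 FPKM against 11.97 to 16.3 FPKM) and Gdf10 (40.3 and 36.5 FPKM against 1.45 to 3.34 FPKM). Bmp6 was the ligand of this group whose level differed least between the sets, at 63.4 and 62.9 FPKM against 32.6 to 39.5 FPKM. It was the highest of the 7 in the time libraries, whereas Bmp4 was the highest in the genotype libraries. Summed over the 7 ligands, the mean level was 927 FPKM in the genotype set and 74.4 FPKM in the time set.

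The 3 TGF-β ligands summed to a mean of 64.8 FPKM in the genotype set and 31.1 FPKM in the time set, in both less than the BMP ligands. Tgfb3 stood at 43.4 and 44.2 FPKM in control and knockout, and at 14.6, 13.6 and 14.6 FPKM at 0 h and 13.4, 15.0 and 15.1 FPKM at 6 h. Tgfb2 stood at 16.2 and 19.0 FPKM in the genotype libraries, at 12.7, 13.3 and 12.3 FPKM at 0 h and at 16.2, 13.6 and 14.8 FPKM at 6 h. The ranges of Tgfb2 and Tgfb3 overlapped in the time set. Tgfb1, the form best known from immune cells and fibrosis, was the lowest of the 3 in each library, at 2.74 and 3.87 FPKM in the genotype set and 2.12 to 3.63 FPKM in the time set.

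Inhba, which encodes the subunit of activin A, showed the opposite order to the BMP ligands. It stood at 14.9 and 19.8 FPKM in control and knockout, and at 408 FPKM, 406 FPKM and 394 FPKM at 0 h and 445 FPKM, 426 FPKM and 416 FPKM at 6 h. The mean in the time set was 24.0 times that of the genotype set, and Inhba was the most abundant ligand gene of the list there. Inhbb, the subunit of activin B, stood at 0.931 and 0.626 FPKM in control and knockout, at 0.512, 0.918 and 1.01 FPKM at 0 h and at 0.55, 0.882 and 0.825 FPKM at 6 h, and so was low throughout. Fst encodes follistatin, which binds activin tightly and blocks it. It stood at 1.86 and 3.44 FPKM in the control and the knockout, and at 52.2, 53.1 and 54.5 FPKM at 0 h and 66.0, 62.4 and 55.4 FPKM at 6 h. The activin subunit and its antagonist were thus both high in the time set and both low in the genotype set. Bmp1, a protease that processes procollagens and cleaves chordin rather than a ligand, stood at 94.7 and 99.2 FPKM in the genotype libraries and at 39.5 to 50.2 FPKM in the time libraries.

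Secreted BMP antagonists were also set apart. Grem1, an antagonist of Bmp2 and Bmp4 made near the crypt base, stood at 46.0 and 49.4 FPKM in control and knockout and at 6.89 to 16.1 FPKM in the time libraries. Chrd, encoding chordin, stood at 32.4 and 36.7 FPKM against 0.283 to 0.689 FPKM. Chrdl1 (4.9 and 4.48 FPKM) and Chrdl2 (1.97 and 1.82 FPKM), which encode chordin-like antagonists, were low in the genotype set and below 1 FPKM as a mean in the time set. Nog, encoding noggin, stood at 0.232 and 0.0925 FPKM in the genotype libraries and at 0.814 to 2.22 FPKM in the time libraries, and was low in both. Fstl1, a follistatin-like glycoprotein, was the most abundant gene of this role, at 341 and 372 FPKM in the genotype libraries, 228 FPKM, 223 FPKM and 234 FPKM at 0 h and 229 FPKM, 229 FPKM and 224 FPKM at 6 h. Twsg1, a partner of chordin, stood at 241 and 284 FPKM in the genotype libraries, at 67.1, 77.1 and 81.3 FPKM at 0 h and at 87.4, 78.3 and 76.3 FPKM at 6 h. Fstl3, another activin binder, stood at 21.5 and 21.6 FPKM and at 15.5 to 20.3 FPKM.

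The sequences upstream of the start site are shown for a ligand, 2 antagonists and Inhba, since these stood at opposite levels in the sets. RefSeq windows (GRCm38.p6) were at hand for 30 of the 45 genes. The 4 shown are the 250 bases before the annotated start, 5′ to 3′ on the gene's strand, and hold no annotated exon. Capitals mark matches on either strand to 4 motifs. CAGAC is a SMAD element and GGCGCC is a GC-rich element bound by SMADs. The AP-1 site was searched as TGANTCA. The TATA box was searched as TATAAA. The matches do not overlap each other. The windows are Bmp4 on the minus strand at chr14:46390670-46390919, Grem1 on the minus strand at chr2:113758649-113758898, Chrd on the plus strand at chr16:20732877-20733126 and Inhba on the plus strand at chr13:16011601-16011850.
Bmp4: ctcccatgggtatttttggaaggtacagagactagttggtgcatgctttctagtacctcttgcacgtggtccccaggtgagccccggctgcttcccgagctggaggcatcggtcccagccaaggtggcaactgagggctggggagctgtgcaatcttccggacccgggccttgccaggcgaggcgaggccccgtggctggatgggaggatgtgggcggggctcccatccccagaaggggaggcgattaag
Grem1: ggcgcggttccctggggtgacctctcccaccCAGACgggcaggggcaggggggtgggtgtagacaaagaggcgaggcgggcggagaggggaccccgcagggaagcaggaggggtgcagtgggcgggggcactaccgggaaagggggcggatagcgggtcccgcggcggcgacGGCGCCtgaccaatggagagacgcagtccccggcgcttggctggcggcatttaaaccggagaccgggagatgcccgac
Chrd: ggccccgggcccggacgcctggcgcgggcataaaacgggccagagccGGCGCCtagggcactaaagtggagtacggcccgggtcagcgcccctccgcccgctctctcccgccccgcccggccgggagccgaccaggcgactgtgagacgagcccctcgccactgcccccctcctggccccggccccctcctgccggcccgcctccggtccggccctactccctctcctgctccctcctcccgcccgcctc
Inhba: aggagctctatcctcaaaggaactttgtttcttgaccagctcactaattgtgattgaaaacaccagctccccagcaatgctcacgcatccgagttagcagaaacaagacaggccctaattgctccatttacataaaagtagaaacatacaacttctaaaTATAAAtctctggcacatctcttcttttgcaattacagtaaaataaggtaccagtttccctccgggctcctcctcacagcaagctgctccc
The Chrd window held 28 CG dinucleotides, that of Grem1 24, that of Bmp4 11 and that of Inhba 3, beside a median of 6 over all 32851 RefSeq windows of this length. The Inhba window held TATAAA, as did 12.4% of all windows. GGCGCC was found in the Grem1 and Chrd windows and in 9.59% of all windows. CAGAC was found in the Grem1 window and in 42.2% of all windows. TGANTCA was in none of the 4 windows and in 6.75% of all. A match is a description of the letters and not a measured binding site.

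Latent TGF-β binding proteins tether TGF-β to the matrix. Ltbp4 was the highest of them in the genotype set, at 822 and 879 FPKM, and stood at 60.8, 67.1 and 64.6 FPKM at 0 h and 69.0, 68.7 and 68.3 FPKM at 6 h. Ltbp2, a member that does not bind TGF-β and is found on microfibrils, went the other way, with 2.32 and 2.57 FPKM in the genotype libraries, 61.3, 63.7 and 63.7 FPKM at 0 h and 68.6, 56.3 and 61.1 FPKM at 6 h. The 2 genes had overlapping levels in the time set, whereas Ltbp4 exceeded Ltbp2 by far in the genotype set. Ltbp1 stood at 54.1 and 56.4 FPKM and at 30.6 to 36.7 FPKM, and Ltbp3 at 65.2 and 58.5 FPKM and at 11.1 to 13.9 FPKM.

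All 6 receptor genes of the list were expressed in both sets. Tgfbr2, the ligand-binding TGF-β receptor, was the highest, at 163 and 181 FPKM in the genotype libraries, 33.5, 33.0 and 36.9 FPKM at 0 h and 35.6, 35.8 and 32.0 FPKM at 6 h. Tgfbr3, the co-receptor betaglycan, came next at 41.4 and 57.4 FPKM in the genotype libraries, 22.7, 25.6 and 27.2 FPKM at 0 h and 28.8, 29.6 and 25.2 FPKM at 6 h. Both stood higher in the genotype set. The type I receptor Tgfbr1 stood at 12.6 and 17.1 FPKM and at 13.7 to 18.8 FPKM, a level that overlapped between the sets. The BMP type I receptor Bmpr1a stood at 33.5 and 37.5 FPKM and at 15.9 to 21.1 FPKM, and Acvr1, another BMP type I receptor, at 16.5 and 19.5 FPKM and at 6.55 to 14.4 FPKM. Bmpr2 was the lowest receptor, at 5.3 and 4.4 FPKM and at 2.08 to 3.14 FPKM. Bambi, a pseudoreceptor without kinase activity, stood at 9.68 and 9.13 FPKM in the genotype libraries, at 5.33, 5.32 and 4.14 FPKM at 0 h and at 4.16, 4.89 and 4.86 FPKM at 6 h, with overlapping times.

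Among the SMADs, Smad4 was the highest in the genotype libraries and Smad1 in the time libraries. Smad1 stood at 17.0 and 23.5 FPKM in the control and the knockout, and at 49.5, 49.5 and 49.6 FPKM at 0 h and 44.3, 44.6 and 49.3 FPKM at 6 h. Smad5, the other abundant BMP-branch SMAD, stood at 16.4 and 18.2 FPKM in the genotype libraries, at 11.1, 12.9 and 15.6 FPKM at 0 h and at 14.6, 11.9 and 12.3 FPKM at 6 h. Smad3 and Smad2 lay between 8.62 and 21.5 FPKM in each of the 8 libraries, and Smad9 did not exceed 1.77 FPKM. The inhibitory SMADs, which are induced by the pathway and feed back on it, were low in the genotype set and higher in the time set. Smad7 stood at 4.03 and 5.34 FPKM in the genotype libraries, at 30.7, 29.9 and 24.9 FPKM at 0 h and at 25.9, 29.9 and 34.8 FPKM at 6 h. Smad6 stood at 5.53 and 3.78 FPKM, at 19.3, 16.7 and 15.9 FPKM and at 15.8, 15.8 and 18.4 FPKM in the same order. The 2 times overlapped for both. The ID genes encode helix-loop-helix inhibitors and are textbook targets of BMP signalling. Their genotype means were 0.997 to 3.2 times those of the time set. The 5 BMP ligands expressed in both sets ran from 1.76 to 90.7 times. Bmp3 and Bmp7, near 0 in the time set, stood at 357 and 189 times. Id3 was the most abundant of the 45 genes in each library, at 1168 and 1094 FPKM in the genotype set, 828 FPKM, 801 FPKM and 716 FPKM at 0 h and 780.3 FPKM, 766 FPKM and 829.8 FPKM at 6 h. Id1 stood at 122 and 109.6 FPKM in the genotype set, at 117 FPKM, 109.9 FPKM and 121 FPKM at 0 h and at 109.5 FPKM, 119 FPKM and 121 FPKM at 6 h, with a mean in the time set 1.00 times that of the genotype set. Id2 stood at 155 and 162 FPKM against 44.0 to 56.3 FPKM, and Id4 at 14.2 and 13.2 FPKM against 5.9 to 8.21 FPKM.

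The 44 genes that averaged 1 FPKM or more in at least 1 of the sets were counted. Of them 12 were at least 4-fold lower in the time set on the log2(FPKM + 1) scale, beside 9.23% of the 15277 genes compared. They were Bmp2, Bmp3, Bmp4, Bmp5, Bmp7, Gdf10, Grem1, Chrd, Chrdl1, Ltbp3, Ltbp4 and Tgfbr2. Bmp3, Bmp7, Chrd and Chrdl1 entered the count through the genotype set alone. At least 4-fold higher were 4 (Inhba, Fst, Ltbp2 and Smad7), beside 4.09% of all genes. The median difference, time minus genotype, was -0.85 for the 44 genes and -0.36 for all genes compared. Of all genes, more passed the cut-off in the genotype set (14949) than in the time set (10910). Entry through either set thus favours the lower direction in these counts and medians. Marker lists moved between the sets as well. The summed level of 10 epithelial markers was 97.3 and 859.9 FPKM in the genotype libraries and 2.48 to 7.94 FPKM in the time libraries, that of 10 leukocyte markers 206 and 244 FPKM against 4.16 to 15.9 FPKM, and that of 8 fibroblast genes 14370 and 16010 FPKM against 2408 to 2603 FPKM. Of the fibroblast genes 6 were lower in the time set by their mean, while Vim (532 and 605 FPKM against 1165 to 1344 FPKM) and Pdpn were higher. Smooth muscle and pericyte markers summed to more in the time set, at 543 to 612 FPKM against 381 and 445 FPKM, although 7 of the 9 were lower there. Each of the 10 epithelial and 10 leukocyte markers was lower in the time set by its mean. The part of these differences in the levels of the BMP and TGF-β genes was not tested.

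**Figure D2:**
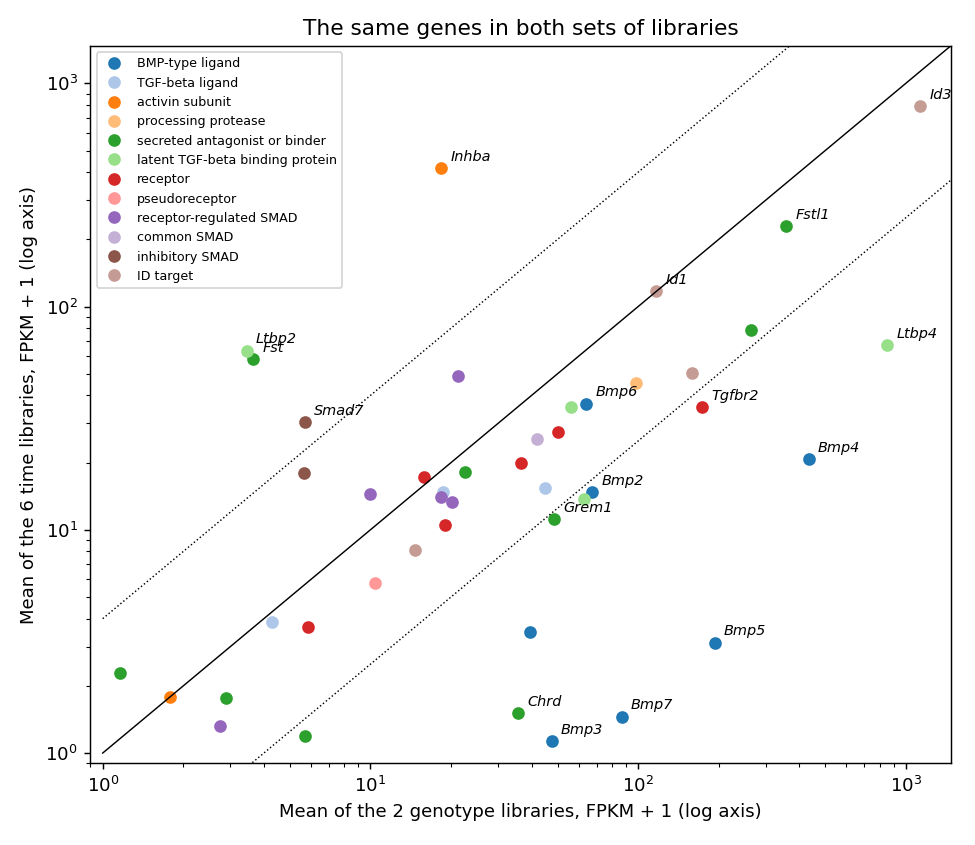
Mean FPKM + 1 of each gene in the 2 genotype libraries (x axis) and in the 6 time libraries (y axis), both on log axes, coloured by role. The solid line marks equal levels and the dotted lines a 4-fold difference. Bmp3, Bmp5, Bmp7 and Chrd lie furthest below the line, Inhba, Fst and Ltbp2 furthest above it, and Id1 on it.

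The time comparison sets 6 h of GABA and taurine against 0 h. Smad4, which pairs with activated SMADs of either branch, was the only 1 of 38 tested genes of the list to pass the threshold, and it fell. In limma over the 10910 genes that averaged 1 FPKM or more, 0.550% of all genes passed at an adjusted p under 0.05 (0.312% lower and 0.238% higher). Smad4 stood at 37.0, 39.4 and 25.9 FPKM at 0 h and at 13.1, 12.5 and 18.6 FPKM at 6 h. The groups did not overlap, and replicate 3 of each time lay nearest the other group. The mean went from 34.1 ± 7.17 to 14.7 ± 3.36 FPKM (SD, n = 3), 0.431 times the level at 0 h. The log2 difference was -1.16 (SE 0.16, 95% confidence interval -1.51 to -0.81, limma adjusted p = 0.0191). An exact two-sided permutation test gave p = 0.1, the smallest that 3 against 3 libraries allow. In all 16 fits were made, among them the main fit and 1, chosen after seeing the data, without replicate 3 of both times. The call was present in 10 of the 16, both of these included. It was lost without 0 h replicate 1 (adjusted p = 0.0778) or 2 (0.115), without 6 h replicate 1 (0.0573) or 2 (0.144), without the filter on low values (0.314) and without the intensity trend in limma (0.291). Over all 16 fits the log2 difference stayed between -1.51 and -1.05. The value of -1.51 came from the fit without replicate 3 of both times, and the lowest of the others was -1.34. Smad4 lies on chromosome 18 from 73639009 to 73703780 (GRCm38, minus strand), is protein-coding, and shares no exon with another annotated gene. The summed level of the epithelial markers, low at both times, was higher at 6 h. Their sum was 2.48 to 3.56 FPKM at 0 h and 4.5 to 7.94 FPKM at 6 h, and 6 of the 10 were at 0 in some library. Only 2 of the 10 were tested. Krt8 passed (0.396 ± 0.291 and 2.06 ± 0.285 FPKM, limma adjusted p = 0.0319) and Lgals4 did not (limma adjusted p = 0.884). Krt20 and Muc2 had lower means at 6 h and the other markers higher ones. The part of these markers in the difference of Smad4 was not tested. In the genotype libraries Smad4 stood at 40.6 and 40.9 FPKM in control and knockout.

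Among 6308 other genes that averaged 10 FPKM or more, the 5 whose log2 values over the 6 time libraries were most like those of Smad4 were Gatad2a, Crls1, Larp1, Ankrd11 and Ybx3, with Pearson r from 0.993 to 0.998. These points share the 2 groups, so any gene that differs strongly between them correlates with Smad4. Ybx3, which encodes a nucleic acid binding protein, stood at 329 FPKM, 384 FPKM and 203 FPKM at 0 h and at 89.0, 97.0 and 158 FPKM at 6 h. Crls1, a cardiolipin synthase gene, stood at 35.6, 35.3 and 29.3 FPKM and at 20.7, 20.7 and 25.5 FPKM. In both of them, as in Smad4, replicate 3 was the lowest at 0 h and the highest at 6 h.

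Acvr1 had the next smallest p of the list. It stood at 11.5, 14.4 and 9.46 FPKM at 0 h and at 7.22, 6.55 and 8.11 FPKM at 6 h, again with replicate 3 nearest the other group at both times. The means were 11.8 ± 2.49 and 7.29 ± 0.786 FPKM (SD, n = 3), with a log2 difference of -0.61 (SE 0.14, limma adjusted p = 0.1), which did not pass. It passed with library weights (adjusted p = 0.0433), without 0 h replicate 3 (0.0237) and without replicate 3 of both times (0.0234). Tgfb1 stood at 3.63, 3.37 and 2.93 FPKM at 0 h and at 2.12, 2.3 and 2.79 FPKM at 6 h (log2 difference -0.34, limma adjusted p = 0.523). The Pearson r with Smad4 over the 6 libraries was 0.967 for Acvr1, 0.966 for Tgfb1 and 0.851 for Smad1. All of these were lower at 6 h without overlap, which by itself makes r large.

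Differences in the other direction were smaller, and none passed in limma (adjusted p of at least 0.347). Tgfbr1 stood at 13.8, 13.7 and 16.6 FPKM at 0 h and at 17.7, 18.8 and 16.5 FPKM at 6 h, a log2 difference of 0.25 (SE 0.10, adjusted p = 0.451) with overlapping groups. Bmpr1a stood at 15.9, 19.2 and 16.7 FPKM and at 19.8, 20.4 and 21.1 FPKM, 0.23 on the log2 scale (adjusted p = 0.442), with groups that did not overlap. Fst, with the values given above, differed by 0.20 (adjusted p = 0.399), and its 3 values at 6 h lay above the 3 at 0 h. Bmp1 stood at 39.5, 40.8 and 43.2 FPKM and at 45.8, 46.5 and 50.2 FPKM (0.20, adjusted p = 0.347), also without overlap. Id2 stood at 48.4, 44.0 and 46.1 FPKM and at 54.5, 47.6 and 56.3 FPKM (0.19, adjusted p = 0.459), where 1 value at 6 h lay within the range at 0 h. For Fst and Tgfbr1, replicate 3 was the highest at 0 h and the lowest at 6 h, the mirror image of Smad4. Bmp1, Bmpr1a and Id2 did not show this order. The r with Smad4 was -0.91 for Fst, -0.95 for Tgfbr1, -0.799 for Bmp1, -0.655 for Bmpr1a and -0.589 for Id2. These genes were named for a difference between the times, which by itself makes r with Smad4 large.

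**Figure D3:**
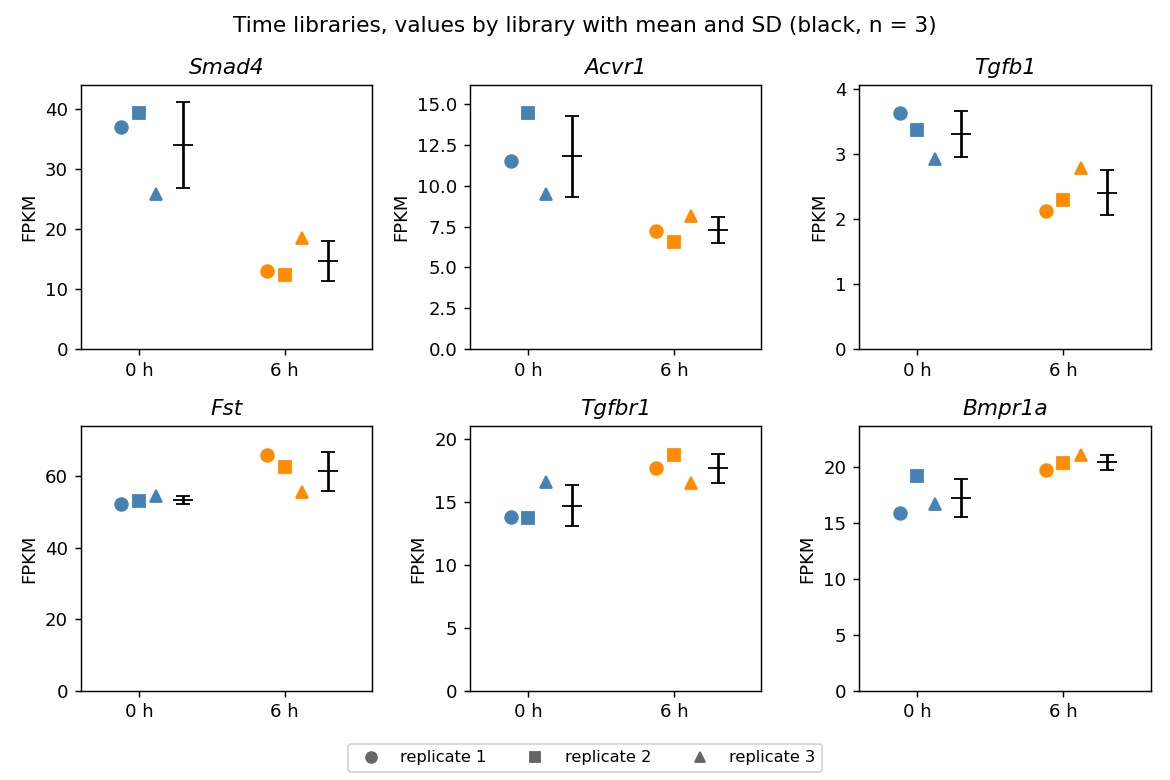
FPKM in each time library for Smad4, Acvr1, Tgfb1, Fst, Tgfbr1 and Bmpr1a, from 0 on each y axis. Symbols stand for replicate numbers, and black bars for the mean ± SD of 3 libraries. In Smad4, Acvr1 and Tgfb1 the 0 h triangles (replicate 3) are the lowest of their group and the 6 h triangles the highest.

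Unadjusted limma p-values under 0.05 were found for 8 of the 38 genes (5 higher, 3 lower at 6 h), beside 9.38% of all genes tested. The 3 values of 1 time lay beyond the 3 of the other for 12 of the 38 (8 higher at 6 h, 4 lower), which is 31.6%, beside 15.3% of all genes tested. The 12 were Smad4, Acvr1, Tgfb1 and Smad1 on the lower side and Bmp2, Tgfb2, Inhba, Bmp1, Fst, Ltbp4, Bmpr1a and Smad3 on the higher. The median log2 difference was 0.04 over the 38 genes and -0.002 over all genes. Of the 38, 36 had log2 differences smaller than 0.35 in size, the exceptions being Smad4 and Acvr1.

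By role, Smad4 aside, no ligand, antagonist, latent binding protein, receptor, SMAD or ID gene passed. Among the BMP ligands, Bmp2 (12.8 ± 0.704 and 14.7 ± 1.44 FPKM), Bmp4 (19.7 ± 1.43 and 19.7 ± 3.24 FPKM), Bmp5 (2.02 ± 0.71 and 2.22 ± 0.48 FPKM), Bmp6 (36.6 ± 2.94 and 35.0 ± 2.11 FPKM) and Gdf10 (2.55 ± 0.685 and 2.44 ± 0.856 FPKM) had 95% confidence intervals of the log2 difference that held 0. That of Bmp4 ran from -0.26 to 0.24, so a change of that size in either direction is not excluded at this number of libraries. All 4 ID genes had log2 differences of 0.01 to 0.22, with adjusted p-values of 0.459 to 0.985. The intervals of the most abundant, Id1 (-0.13 to 0.14) and Id3 (-0.11 to 0.15), were narrow. Grem1 varied between the 6 h libraries, at 7.8, 9.69 and 8.47 FPKM at 0 h and 16.1, 6.89 and 12.1 FPKM at 6 h, with 6 h values on either side of those at 0 h. Of the 7 genes not tested for low values, Bmp7 stood at 0.31 ± 0.046 FPKM at 0 h and 0.599 ± 0.246 FPKM at 6 h and Bmp3 at 0.0507 ± 0.0445 and 0.21 ± 0.178 FPKM. Inhbb, Chrd, Chrdl1, Chrdl2 and Smad9 had means below 1 FPKM at both times.

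**Figure D4:**
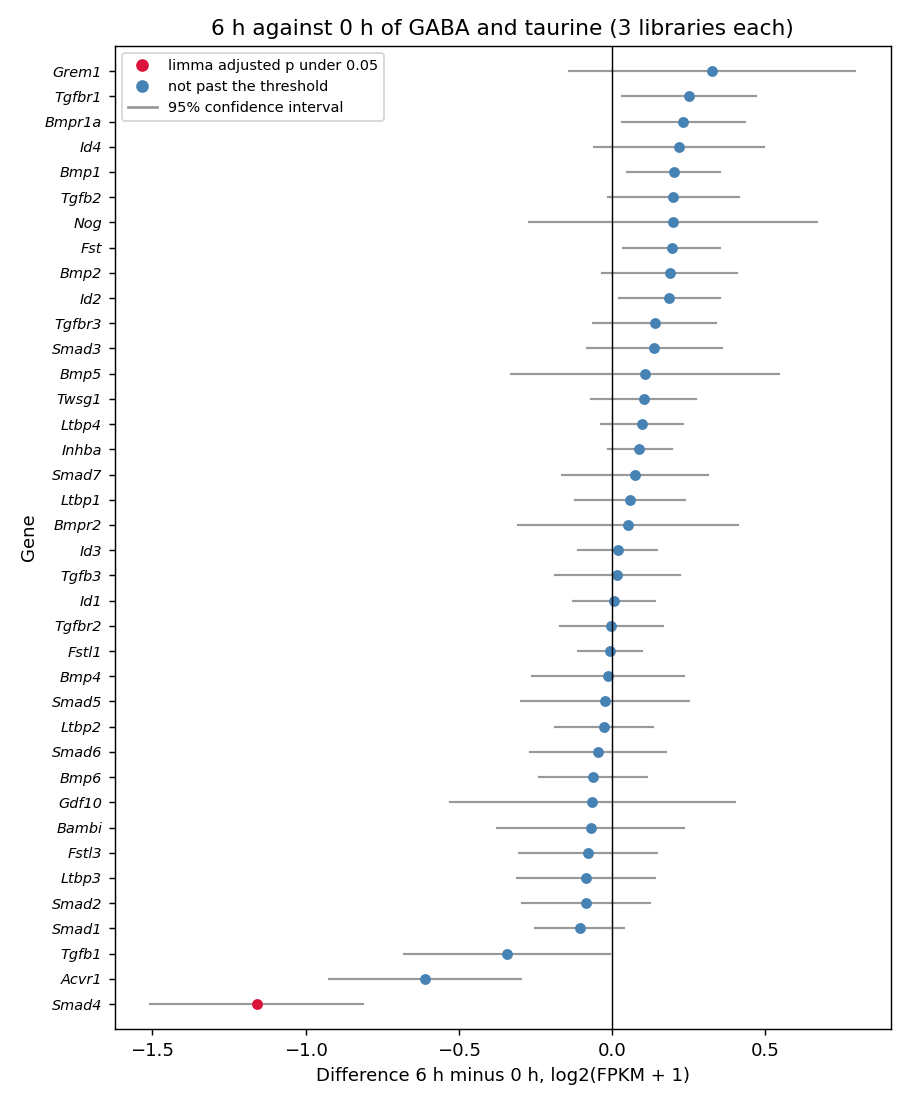
Difference between 6 h and 0 h on the log2(FPKM + 1) scale for the 38 tested genes, with 95% confidence intervals from limma (3 libraries per time). Smad4, in red, is the only point past an adjusted p of 0.05, at -1.16, and the intervals of most other genes include 0.

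The genotype comparison asks what changes when Cxcl12 is deleted from Foxl1-expressing cells. With 1 library per genotype no test is possible and no difference has a replicate check. Of the 43 genes that averaged 1 FPKM or more, 0 differed by 2-fold or more on the log2(FPKM + 1) scale, where 3.59% of 14949 genes did. At so low a share few of 43 genes would pass, so the count of 0 does not set the list apart. At 1.5-fold the count was 1, Fst, beside 11.2% of all genes. Fst stood at 1.86 and 3.44 FPKM in control and knockout, a log2 difference of 0.64 at a low level. The other 42 genes differed by less than 0.5 on the log2 scale.

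The next genes in size were chosen after their values were seen. Multiples of the control in this paragraph are ratios of FPKM, without the added 1. Tgfbr3 was 1.39 times, Smad1 1.38 times, Tgfbr1 1.36 times, Inhba 1.33 times and Tgfb1 1.41 times as high in the knockout library as in the control. The inhibitory SMADs differed in opposite directions, with Smad7 at 1.33 times and Smad6 at 0.684 times the control. The ligands that dominate these cells were close, Bmp4 at 1.04 times, Bmp5 at 1.04 times, Bmp7 at 1.02 times and Bmp6 at 0.992 times the control, as were Grem1 at 1.07 times and Id3 at 0.936 times. Of the 43 genes, 31 were higher and 12 lower in the knockout library, with a median log2 difference of 0.07, beside 55% higher and a median of 0.04 over all genes. After scaling both libraries to their 75th percentile, 21 were higher and 22 lower, beside 42.7% higher over all genes. The medians were then -0.02 and -0.04, so which direction holds more genes depends on the scaling. In the knockout library the 8 fibroblast genes summed to 16010 FPKM against 14370 FPKM in the control (7 of 8 higher). In the same library the summed epithelial markers were higher (859.9 against 97.3 FPKM, 10 of 10 markers), leukocyte markers stood at 244 against 206 FPKM (8 of 10 higher), smooth muscle and pericyte markers at 445 against 381 FPKM (2 of 9 higher) and endothelial markers at 44.9 against 68.4 FPKM (3 of 10 higher). The part of these marker lists in the small differences above was not tested.

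**Figure D5:**
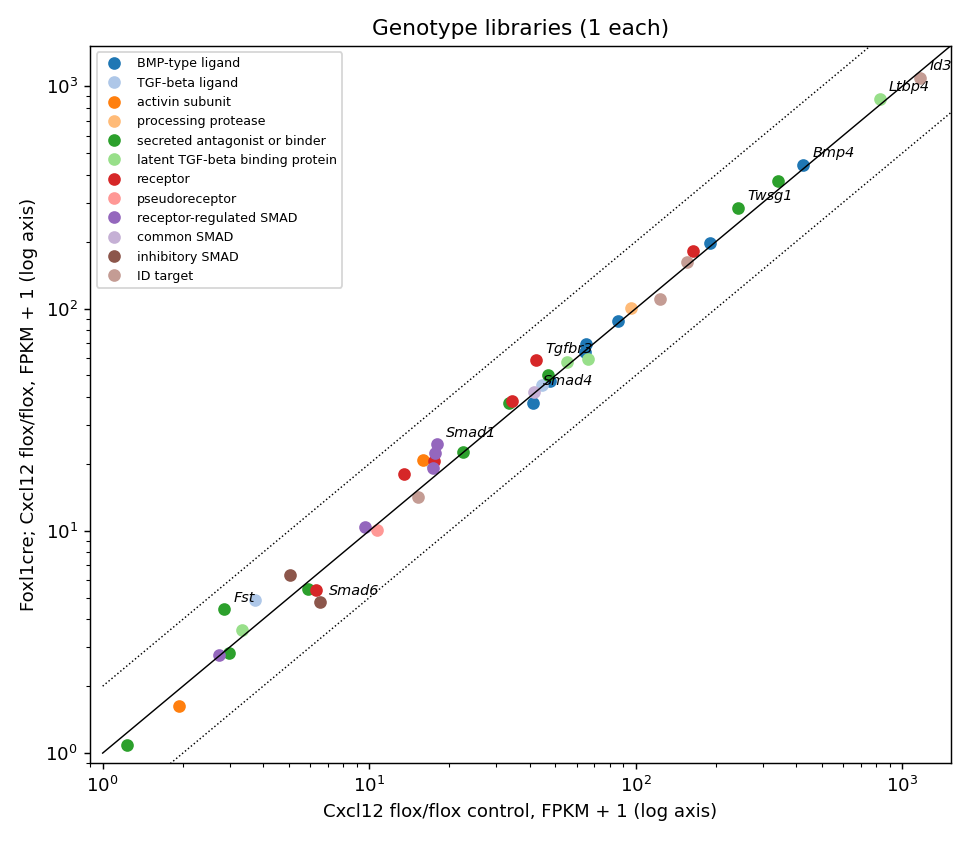
FPKM + 1 of the 45 genes in the control library (x axis) and the conditional knockout library (y axis), both on log axes, coloured by role. The dotted lines mark a 2-fold difference, and no gene that averaged 1 FPKM or more lies on or beyond them. Fst lies furthest above the line of equal levels.

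Around these genes, 7 lists of other pathway genes held 101 symbols, of which 59 were tested in the time comparison, and 1 passed in limma, beside 0.550% of all genes. An unadjusted p under 0.05 was found for 12 of the 59, beside 9.38% of all genes. The gene that passed was Lrrc32, which encodes GARP, a membrane anchor of latent TGF-β. It rose from 34.8, 35.5 and 34.0 FPKM at 0 h to 47.7, 43.7 and 43.7 FPKM at 6 h (log2 difference 0.36, SE 0.07, limma adjusted p = 0.0408). Of the same 16 fits, the main fit included, 6 called it (adjusted p from 0.0211 to 0.304). It did not pass when any 1 of the 6 libraries was left out (0.063 to 0.195), without the filter (0.244), without the trend (0.304) or without replicate 3 of both times (0.0943). The 6 h values all lay above the 0 h values. Lrrc32 was the only 1 of 10 tested genes of latent TGF-β release and storage to pass. In that list Dcn, a matrix proteoglycan gene, stood at 291 FPKM, 309 FPKM and 288 FPKM at 0 h and at 333 FPKM, 345 FPKM and 364 FPKM at 6 h (adjusted p = 0.0961).

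Of 15 tested SMAD cofactors and regulators 0 passed in limma, and 2 had an unadjusted p under 0.05 (9.38% of all genes did). Smurf2, a ubiquitin ligase that acts on SMADs and receptors, stood at 58.9, 70.3 and 54.6 FPKM at 0 h and at 40.4, 42.8 and 50.1 FPKM at 6 h (adjusted p = 0.0802). As in Smad4, replicate 3 was the lowest at 0 h and the highest at 6 h. Skil, a SMAD corepressor gene, stood at 47.1, 55.4 and 52.2 FPKM and at 59.1, 59.1 and 62.1 FPKM (adjusted p = 0.321). Of 16 textbook TGF-β target genes 0 passed in limma and 4 had an unadjusted p under 0.05, beside the same 9.38%, with Ctgf (1456 ± 54.5 and 1656 ± 9.11 FPKM) and Col3a1 (114 ± 3.09 and 133 ± 5.21 FPKM) smallest in p, at adjusted p-values of 0.125 and 0.135.

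For each list below, the shares over all genes tested in limma were 0.550% past the threshold and 9.38% at an unadjusted p under 0.05. Of 7 tested textbook BMP targets 0 passed in limma and 1 had an unadjusted p under 0.05. This was Nkx2-3, a transcription factor gene of gut mesenchyme, at 14.6, 15.9 and 14.6 FPKM and at 17.6, 17.4 and 18.9 FPKM (adjusted p = 0.387). Runx2 followed with an adjusted p of 0.542. Of 6 other receptors 0 passed in limma and 1 had an unadjusted p under 0.05, Acvrl1, at 44.6, 42.6 and 42.0 FPKM and at 36.3, 40.7 and 32.9 FPKM (adjusted p = 0.364), with Bmpr1b next (adjusted p = 0.543). Of 4 other antagonists 0 passed in limma and 1, Nbl1, had an unadjusted p under 0.05 (166 ± 9.94 and 185 ± 8.95 FPKM, adjusted p = 0.413), followed by Crim1 (adjusted p = 0.544). Of 4 other ligands 0 passed and 0 had an unadjusted p under 0.05 in limma, Gdf6 and Gdf9 having the smallest p. Over the 59 genes, 39 were higher and 20 lower at 6 h, with a median log2 difference of 0.04, beside 49.5% higher and a median of -0.002 over all genes. After 75th percentile scaling 40 were higher and 19 lower, beside 53.5% higher over all genes. In the genotype libraries 0 of 69 pathway genes differed by 2-fold or more, beside 3.59% of all genes.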

How the data were processed

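The authors deposited 1 table per library with an FPKM value for each gene symbol, per the file headers. Build mm10 and the tools Cuffdiff 2.2.1, TopHat2 2.1.1, SAMtools 0.1.18 and Bowtie2 2.2.8 are listed, without role or order, in the submitters' processing notes. The annotation and any scaling across libraries were not given in the sources used here. The cDNA kit was SMART-Seq HT, per the labels' protocols, which does not mark strand. Exons of 14 of the 45 genes overlap those of another gene in GENCODE M21 (among them Bmp4, Bmp5, Bmp6, Chrd, Fst, Ltbp2 and Bmpr1a), and reads there cannot be told apart. Total FPKM ran from 513001 to 579004.

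Here log2(FPKM + 1) of the 6 time libraries was fitted over genes that averaged 1 FPKM or more. The tool was limma 3.58.1 (R 4.3.3), with its intensity trend. P-values were adjusted by Benjamini-Hochberg over all of them, with a threshold of 0.05. On this scale changes of low genes are understated. The fit was tested on simulated data with independent noise for each gene. Such data lack the replicate 3 pattern that several genes share here, so the test does not bear on single calls. Genotype differences on the log2 scale are log2 ratios of FPKM + 1, while multiples of the control are ratios of FPKM. The genes, lists and tests were chosen with earlier results of these data known. Values by library were given for genes with an unadjusted p under 0.05, the 2 most abundant of each role and any gene past 2-fold between genotypes. Of each pathway list, genes past the threshold and up to 2 with the smallest p were named. Genes most like a called one were the 5 with the highest Pearson r at a mean of at least 10 FPKM. Other genes were named after their values were seen. Same-numbered libraries of the 2 times were checked for pairing and were not paired. Alternatives are given below.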

Additional observations from a re-analysis of the deposited data

How the results depend on the processing

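The fall of Smad4 kept its direction in all 16 fits. It was called in 10, among them the main fit and the fit chosen after seeing the data. The count of genes of the list called in limma was 1. It was 0 without the filter or without the trend, 2 with library weights (Smad4 and Acvr1), 2 without replicate 3 of both times (an alternative chosen after seeing the data), and 0 to 2 with 1 library left out. Over all genes the 60 calls became 0 without the filter, 0 without the trend, 109 with library weights, 106 without replicate 3 of both times, 85 with a filter at 5 FPKM, 65 with a pseudocount of 0.1, and 2 to 115 with 1 library left out. The counts were 6, 3 and 115 without 0 h replicates 1, 2 and 3, and 4, 2 and 41 without 6 h replicates 1, 2 and 3. At an unadjusted p under 0.05 limma gave 1322 of 17119 genes tested (7 of the list) without the filter. Without the trend it gave 960 of 10910 (7 of the list). The cause was not tested.

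With the replicate number as a block 23 genes were called in limma, Smad4 kept its call (adjusted p = 0.0333) and Lrrc32 did not (adjusted p = 0.1). The deviations of same-numbered libraries from their group means had correlations of -0.044, 0.013 and -0.028, so the numbers give no sign of pairing.

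At 1.5-fold in place of 2-fold, 1 gene of the list differed between the genotypes (Fst). The other counts of genes expressed, past 2-fold or without overlap stayed within 1.5 times under each setting tried.

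Of 387 alternative values of 26 named genes, 341 kept direction and side of the threshold, 3 (Acvr1) newly passed, 6 (Smad4) no longer passed and 37 changed sign. The sign changes fell on 11 genes, none of which passed in limma. With 1 library left out the log2 difference ran from -0.118 to 0.111 for Bmp4, -0.059 to 0.281 for Bmp5, -0.013 to 0.069 for Tgfb3, -0.022 to 0.012 for Fstl1, -0.099 to 0.041 for Ltbp2, -0.031 to 0.05 for Tgfbr2, -0.128 to 0.096 for Smad5, -0.115 to 0.031 for Smad6, -0.028 to 0.178 for Smad7, -0.031 to 0.05 for Id1 and -0.041 to 0.063 for Id3. Under 75th percentile scaling it was 0.002 for Bmp4, 0.008 for Fstl1 and 0.013 for Tgfbr2, and under quantile normalisation 0.017 for Fstl1 and 0.005 for Tgfbr2. With library weights it was 0.004 for Bmp4, -0.006 for Bmp5, 0.004 for Fstl1 and 0.019 for Tgfbr2. Without replicate 3 of both times it was -0.001 for Bmp5, 0.021 for Fstl1, 0.099 for Tgfbr2, 0.127 for Smad5, -0.118 for Smad7 and -0.076 for Id3.

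Since read numbers are unknown, no counting error is given.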
